A study of Drosophila melanogaster with 3 samples.

Results

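Of the 6307 peaks that the authors kept for GFP-tagged CG10209 by the irreproducible discovery rate (IDR), 673 (10.7%) had no counterpart at all in the replicate 1 list. They were defined by a measured outcome: none of the 30000 regions listed for replicate 1, background regions included, overlapped them by 1 bp or more. The other 5634 IDR peaks, called remaining peaks, served as the comparison. Most of the 673 lay at gene starts: 489 (72.7%) lay with the summit at most 500 bp from an annotated start of transcription, against 2212 of the remaining peaks (39.3%). All 673 were overlapped by a region of replicate 2 and 670 also by a region of replicate 3. With the same rule applied to the other lists, 67 peaks had no region in replicate 2 and 21 had none in replicate 3.

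The occupancy of CG10209 was measured by sequencing chromatin immunoprecipitated with an anti-GFP antibody (ChIP-seq) from whole Drosophila melanogaster embryos, both sexes pooled, 0 to 24 h old. Every sample came from 1 transgenic strain, CG10209-GFP, which stably expresses CG10209 with GFP fused to its C-terminus, from an insertion targeting CG10209 per the labels. Chromatin was sonicated to a size range of 200 to 800 bp, and there were 3 biological replicates, 1 group and no second condition. Whole embryos mix all cell types of that age range, so that few cells with strong occupancy and many with weak occupancy cannot be told apart. With no second group and with members chosen by the readout, no test was made. Shares carry exact binomial 95% intervals and medians carry 95% intervals from order statistics, and both cover counting error only. Both also treat peaks as separate sites, which not all are. The 6307 peaks form 6263 distinct intervals, and 77 members had another member summit within 1 kb.

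In ChIP-seq, fragments bound by a protein are enriched and sequenced, and a peak is a place where they pile up above a control. IDR compares how regions rank in different replicates and keeps those that rank high reproducibly, so a peak kept by the pooled analysis can be missing from 1 replicate. Promoters of broadly active fly genes often lie close together, many of them back to back on opposite strands, and a common motif among them is the DNA replication-related element (DRE), bound by the factor Dref. Developmental genes instead often rely on enhancers in introns and between genes. GAGA factor, the product of Trl, opens chromatin at GA-rich sequence, and Zelda is the early embryonic factor that helps to open the zygotic genome.

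Reference sequence of 3 member promoters that hold a DRE is shown, because the DRE was more frequent in member windows than in remaining windows. The capitals mark the DRE, TATCGATA. The bases are the parts without UTR of the windows 100 bp either side of the summit, read 5′ to 3′ on the plus strand of the RefSeq copy of Release 6 (dm6), for CG3337 at chr3R:21223585-21223703, CG32856 at chr3R:15965352-15965445 and RpS14a, which encodes a protein of the small ribosomal subunit, at chrX:7933582-7933741.
CG3337: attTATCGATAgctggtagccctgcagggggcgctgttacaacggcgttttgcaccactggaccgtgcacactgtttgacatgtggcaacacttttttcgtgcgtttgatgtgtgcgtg
CG32856: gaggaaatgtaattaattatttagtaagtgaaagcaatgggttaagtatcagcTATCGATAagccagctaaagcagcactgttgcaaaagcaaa
RpS14a: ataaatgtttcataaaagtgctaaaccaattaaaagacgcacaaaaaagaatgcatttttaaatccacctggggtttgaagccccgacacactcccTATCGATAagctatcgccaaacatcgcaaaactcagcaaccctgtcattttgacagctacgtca
These peaks had replicate 2 signal values of 214, 118 and 99.4 and replicate 3 values of 154, 220 and 153, in that order, and summits at -45, -15 and -60 bp from the nearest start. No replicate 1 region touched any of them.

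A further sequence is that of the member at snRNA:U1:95Ca, a gene for the U1 small nuclear RNA of the spliceosome, at chr3R:23859447-23859647 on the plus strand of the same build, shown because its central 50 bases occur at 4 places in the genome. The last pair belongs to remaining peaks outside promoters that hold the 8-base word CACTGAGA, in capitals on either strand, shown because no member outside promoters held it: slp2, a segmentation gene, lies nearest to chr2L:3832422-3832622, and ImpL2, which encodes a secreted insulin-binding protein, nearest to chr3L:4228279-4228479.
snRNA:U1:95Ca: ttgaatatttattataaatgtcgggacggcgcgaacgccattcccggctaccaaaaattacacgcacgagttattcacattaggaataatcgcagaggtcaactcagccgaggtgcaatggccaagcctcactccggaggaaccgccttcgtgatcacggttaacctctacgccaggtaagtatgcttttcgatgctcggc
slp2: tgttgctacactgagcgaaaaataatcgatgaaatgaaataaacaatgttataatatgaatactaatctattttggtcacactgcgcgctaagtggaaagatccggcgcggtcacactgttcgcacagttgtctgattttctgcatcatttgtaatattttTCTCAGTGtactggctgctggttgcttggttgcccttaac
ImpL2: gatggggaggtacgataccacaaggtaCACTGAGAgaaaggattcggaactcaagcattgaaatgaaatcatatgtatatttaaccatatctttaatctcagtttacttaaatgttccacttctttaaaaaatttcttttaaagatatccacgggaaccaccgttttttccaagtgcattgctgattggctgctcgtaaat
The U1 peak had signal values of 215 in replicate 2 and 181 in replicate 3. For the slp2 peak these values were 394 and 556, and for the ImpL2 peak 407 and 510.

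Signal values are those of the authors' lists and have a different range in each list, so they were ranked only within a list. Replicate 1 listed values from 23.3 to 2996, replicate 2 from 21.0 to 6448 and replicate 3 from 21.4 to 5813, each over 30000 regions. A member is therefore absent from the replicate 1 list, and its replicate 1 signal is not known to be 0. At a −log10 q of 2 or more, which is a q of 0.01 or less, replicate 1 had 4296 regions, replicate 2 had 9183 (30.6% of its list) and replicate 3 had 9015 (30.1%). Replicate 1 thus stood apart by its smaller number of strong regions. Its 30000 regions also lay less often at promoters (19.0%) than those of replicate 2 (33.1%) or replicate 3 (28.3%), whereas at a q of 0.01 the shares were 42.5%, 46.1% and 40.0%.

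Members were present in both other replicates. Regions in both overlapped 99.6% of members (95% interval 98.7 to 99.9) and 98.6% of remaining peaks (98.3 to 98.9). At a q of 0.01 in both replicates stood 616 members, or 91.5% (89.2 to 93.5), against 93.0% of remaining peaks (92.3 to 93.6). In replicate 2 by itself 95.2% of members and 93.9% of remaining peaks passed, and in replicate 3 by itself 96.1% and 98.8%. Over all listed regions of each replicate by itself the shares were the 30.6% and 30.1% above. These values were not used by the rule, but IDR had already kept the peaks for their ranks across replicates.

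Within those replicates members were of moderate height. In replicate 2 their signal ranged from 24.6 to 438 with a median of 96.4, and remaining peaks had a median of 110 and a maximum of 6448. In replicate 3 they ranged from 39.8 to 517 with a median of 115, against a median of 142 and a maximum of 5813. The members' median rank was 3626 (3432 to 3901) in replicate 2 and 3819 (3589 to 4204) in replicate 3, whereas remaining peaks had medians of 2938 (2851 to 3031) and 2861.5 (2774 to 2942). Members thus ranked lower at the median while overlapping widely with remaining peaks, and none reached the highest signals. This order did not hold against every class of remaining peaks: the 1343 with a replicate 1 region short of a q of 0.01 had median ranks of 5130.5 in replicate 2 and 4982.5 in replicate 3, lower than members. At promoters the gap was wider. The median rank there in replicate 2 was 3647 (3434 to 3986) for members and 2240.5 (2124 to 2380) for remaining peaks. In replicate 3 the promoter medians were 3924 (3582 to 4288) and 2195 (2091 to 2345). Outside promoters the medians in replicate 2 were 3500 for members and 3409 for remaining peaks, with intervals that overlap. In replicate 3 they were 3673 and 3250. Among the 6307 regions of highest signal of replicate 2 were 84.0% of members and 83.4% of remaining peaks; for replicate 3 the shares were 85.7% and 91.5%.

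**Figure D1:**
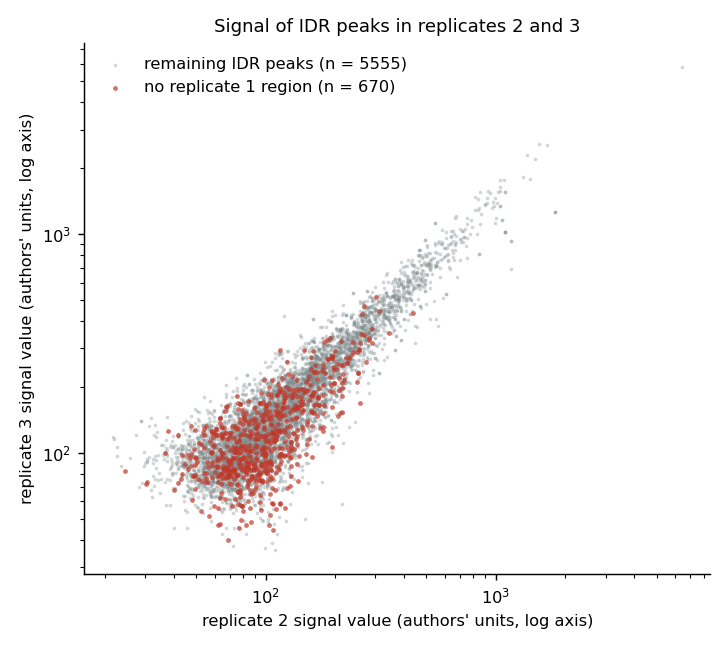
Signal value in replicate 2 (x axis) and replicate 3 (y axis), both in the authors' units on log axes, for each IDR peak with a region in both; red points are the 670 such members and grey points the 5555 remaining peaks. Members sit in the lower and middle part of the cloud, up to 438 in replicate 2 and 517 in replicate 3.

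Across peaks, the replicate 2 and 3 values were related with Spearman's rho of 0.63 over 670 members and 0.86 over 5555 remaining peaks. These are descriptions over peaks that share their libraries, and the members span a narrower range. In the pooled list the median signal was 284 (271 to 295) for members and 350 (343 to 357) for remaining peaks. When the IDR list was divided into 4 equal classes by pooled signal, class 1 the lowest, members made up 15.9% of class 1, 10.7% of class 3 and 4.12% of class 4, with class 2 in between. Pooled signal includes replicate 1 and so is tied to the rule.

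At the boundary of the rule, the 5 members nearest to a replicate 1 region lay 14 to 52 bases from it. They were at the starts of htk (14 bases), Cox17 (26 bases), FoxK (48 bases) and eIF1 (52 bases) and in an intron of CG10543 (24 bases). Their replicate 2 signals ran from 96.9 to 211.9 and their replicate 3 signals from 127 to 292. The 5 remaining peaks of smallest overlap shared 22, 25, 28, 34 and 48 bases with a replicate 1 region and lay nearest to Poxm, CycE, anox, stv and phr6-4. The overlapping replicate 1 regions ranked 301 to 845 in their list, so that a slight overlap did not mean a weak replicate 1 region. Few members were near this boundary: 15 of 673 (2.23%) lay within 200 bases of a replicate 1 region, and the median gap was 4171 bp (3796 to 4708).

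Members and remaining peaks lay at different kinds of position. The promoter share of 72.7% (69.1 to 76.0) compared with 39.3% (38.0 to 40.6) of remaining peaks. Introns held 134 members, or 19.9% (17.0 to 23.1), against 41.8% (40.5 to 43.1), and intergenic sequence held 30, or 4.46% (3.03 to 6.30), against 16.3% (15.3 to 17.2). Coding sequence held 2 members, 3′ UTRs 13, 5′ UTRs outside the promoter window 1 and exons of RNA genes 4. Seen from the other side, 18.1% of all promoter peaks were members (16.7 to 19.6), against 5.10% of peaks outside promoters (4.41 to 5.87).

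This difference in promoter share was present at every level of pooled signal. In signal class 1 74.1% of 251 members and 28.5% of 1326 remaining peaks were at promoters. The shares were 68.3% of 189 and 33.6% of 1388 in class 2 and 76.2% of 168 and 39.5% of 1408 in class 3. In class 4 they were 70.8% of 65 and 53.7% of 1512. The promoter share was higher at higher signal among remaining peaks and lay between 68.3% and 76.2% among members.

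The difference depended on the rule. When a peak was counted as missing unless it had a replicate 1 region at a q of 0.01, there were 2016 members and 43.3% of them were promoter peaks, against 42.6% of the rest. Peaks with a weaker replicate 1 region, 1343 in number, had a promoter share of 28.6% (26.2 to 31.1), the lowest of the 3 classes, and 42.6% (41.1 to 44.1) of the 4291 peaks with a replicate 1 region at a q of 0.01 lay at promoters. The rule applied to replicate 3 gave 61.9% of 21 peaks against 42.8%, and applied to replicate 2 it turned the direction, with 32.8% of 67 peaks against 42.9%.

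**Figure D2:**
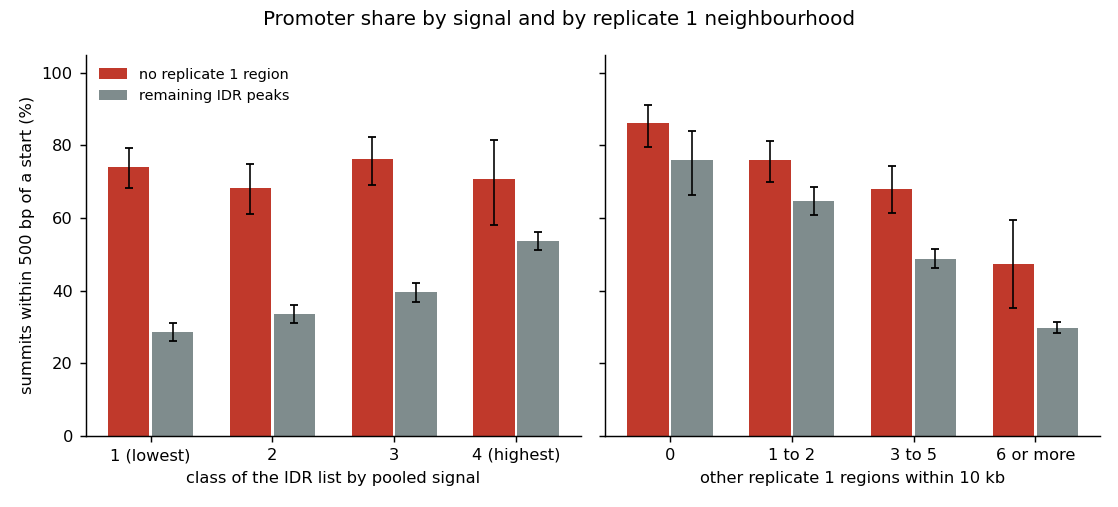
Share of peaks with a summit within 500 bp of an annotated start (y axis, percent), for peaks with no replicate 1 region (red) and remaining peaks (grey), by class of pooled signal (left, 1 lowest) and by the number of other replicate 1 regions within 10 kb (right); error bars are exact binomial 95% intervals. Members are higher in each class, and on the right both sets are lower where replicate 1 has more regions, 86.2% against 47.2% and 76.0% against 29.8%.

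Summits of members also lay closer to the start. Within 100 bp of a start were 279 members, 41.5% (37.7 to 45.3), against 13.0% (12.2 to 13.9) of remaining peaks. Restricted to promoter peaks the shares were 57.1% (52.5 to 61.5) and 33.2% (31.2 to 35.2). The median position of member promoter summits was -62 bp (-73 to -55), and that of remaining promoter summits -126 bp (-133 to -120). Most lay upstream in both sets, 78.5% of member and 81.3% of remaining promoter peaks. A start of a coding gene on each strand within the window was found for 45.4% of member promoters (40.9 to 49.9) and 29.1% of remaining promoters (27.2 to 31.1). Only 22 members (3.27%) were over 5000 bp from any start, against 19.0% of remaining peaks.

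**Figure D3:**
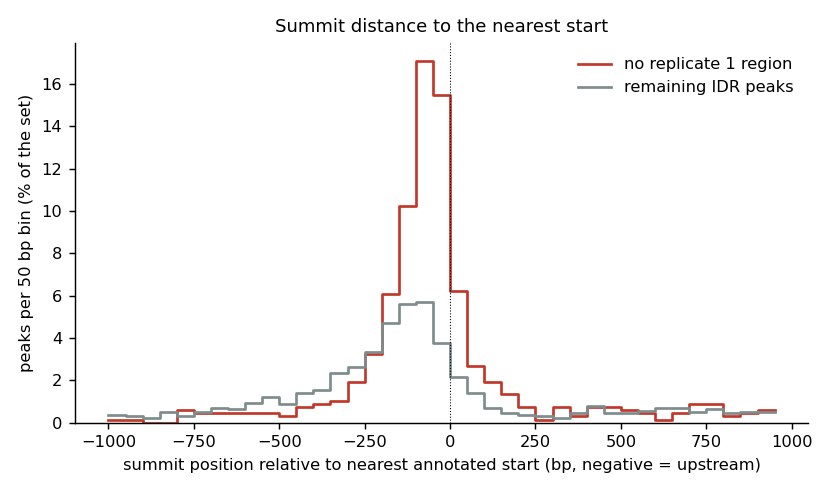
Position of the summit relative to the nearest annotated start (x axis, bp, negative is upstream) as the percent of each set per 50 bp bin (y axis), for members (red) and remaining peaks (grey). The members form a narrow crest just upstream of the start, and 41.5% of them lie within 100 bp, against 13.0% of remaining peaks.

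Members lay in neighbourhoods with few replicate 1 regions. Within 10 kb of a member summit the median number of replicate 1 regions was 2, against 8 around remaining peaks, whose own region is included. Replicate 2 regions numbered 10 at the median around both sets, and replicate 3 regions 8 and 9. The medians thus differed by 6 regions in replicate 1, by 1 in replicate 3 and by 0 in replicate 2. In stretches of at least 10 kb with no replicate 1 region lay 641 members (95.2%), and 435 (64.6%) were in stretches of at least 20 kb. The rule itself places members between replicate 1 regions, so these are descriptions.

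**Figure D4:**
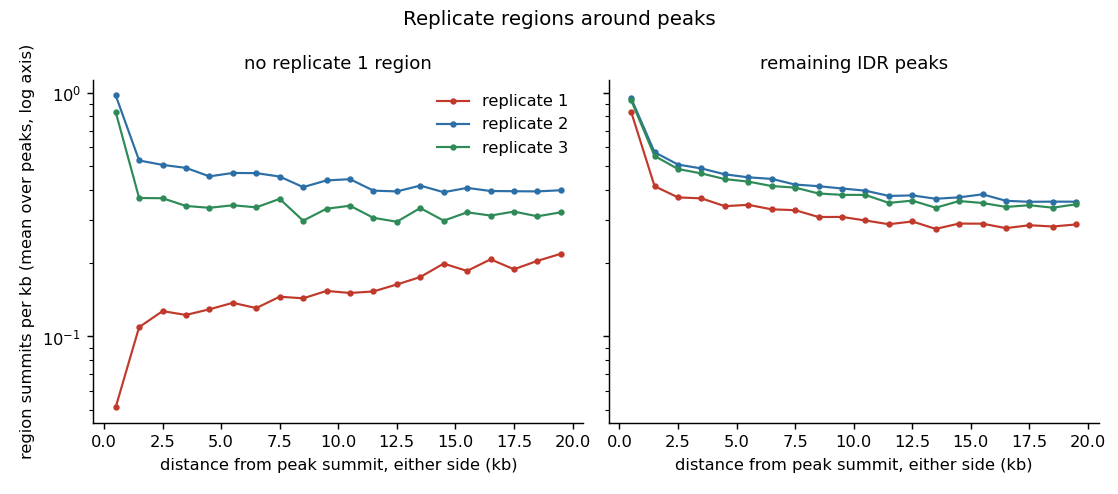
Region summits of replicates 1, 2 and 3 per kb (y axis, log scale, mean over peaks) by distance from the peak summit on either side (x axis, kb), for members (left) and remaining peaks (right). In the first kb the replicate 1 density is 0.0513 around members and 0.836 around remaining peaks, and at 19 to 20 kb it is still lower around members, 0.218 against 0.288.

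Stretches of 10 kb or more without a replicate 1 region were 2716 in number and covered 61.2 Mb of 133.9 Mb. They were as rich in annotated starts as the arms as a whole, with 175.8 and 176.2 starts per Mb. Stretches without replicate 2 regions had 103 starts per Mb and those without replicate 3 regions 119. The sequence that replicate 1 left without regions was thus of average gene density, and that of the other lists was gene-poor. The other lists were also sparser there, with 135.7 regions per Mb for replicate 2 and 96.9 for replicate 3, against 224 per Mb over whole arms. Within 10 kb of a member lay a median of 8 annotated starts, against 4 for remaining peaks, and for promoter peaks alone the medians were 9 and 7.

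Promoter share went with this neighbourhood in both sets. Where no other replicate 1 region lay within 10 kb, 86.2% (79.7 to 91.2) of 152 members and 76.0% (66.4 to 84.0) of 100 remaining peaks were promoter peaks. With 1 to 2 such regions the shares were 75.8% of 236 and 64.8% of 576. With 3 to 5 they were 68.1% of 213 and 48.8% of 1505, and with 6 or more 47.2% of 72 and 29.8% of 3453. The members' share was above that of remaining peaks in each class, by 10.2 to 19.3 percentage points instead of the 33.4 over all peaks. How much the replicate 1 neighbourhood contributes to the members' position was not tested further.

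Among the 7 motifs searched, the DRE had the widest gap in favour of members. A DRE lay within 100 bp of the summit of 48 members, 7.13% (5.31 to 9.35), against 1.99% (1.64 to 2.39) of remaining peaks. All but 1 of these members were promoter peaks. At promoters alone the shares were 9.61% (7.15 to 12.6) of 489 members and 4.48% (3.65 to 5.42) of 2212 remaining peaks. Member and remaining promoter windows were not matched for distance to the start, which was shorter at the median for members. For scale, 5.43% of windows of the same length centred on all 23697 annotated starts held a DRE, as did 3.88% of pooled promoter regions outside the IDR list. Of 146 promoter peaks with a DRE, 47 (32.2%, 24.7 to 40.4) were members, against 17.3% (15.9 to 18.8) of the 2555 without. The share among members was 7.97%, 5.29%, 10.1% and 1.54% from signal class 1 to 4. Among remaining peaks it was 1.96%, 1.73%, 2.27% and 1.98%, so the difference was not seen in class 4, where the order turned. Class 4 has 65 members, and its interval of 0.0389% to 8.28% includes the share of all members. In both sets the DRE share was lower where more other replicate 1 regions lay within 10 kb. With 0, 1 to 2, 3 to 5, and 6 or more, it was 10.5%, 7.63%, 5.63% and 2.78% among members. Among remaining peaks it was 5%, 4.17%, 2.86% and 1.16%. The intervals of the sets overlapped in each class, and the contribution of this neighbourhood was not tested.

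Of the other motifs, the words 1 and 2 were less frequent in members over all peaks. CACTGAGA, called word 1, lay in 6 member windows (0.892%, 0.328 to 1.93) and in 4.03% (3.53 to 4.58) of remaining windows. At promoters alone word 1 was in 1.23% (0.452 to 2.65) of member windows and 1.72% (1.22 to 2.35) of remaining windows, intervals that overlap. Outside promoters 0 of 184 members held it, which allows a share of up to 1.63% by the limit of 3 counts and 1.98% by the exact interval, against 189 of 3422 remaining peaks (5.52%, 4.78 to 6.34). CACTGTGC, word 2, lay in 1.63% (0.819 to 2.91) of member and 4.17% (3.66 to 4.73) of remaining windows. Both words and TTTAAAAA, word 3, were known from earlier results of these data, in which most peaks are remaining peaks, so their shares are not independent evidence. Word 3 was at 10.4% and 10.8%, the TATA box letters TATAAA at 37.3% and 36.7%, and the GAGA factor letters GAGAG at 18.7% and 22.0%, members first. The Zelda letters CAGGTAG were in 11 member windows, 1.63% (0.819 to 2.91), and in 0.763% (0.553 to 1.03) of remaining windows, intervals that overlap. All 7 were searched on both strands of 201-base windows, none contains another although the end of word 1 can overlap a GAGAG, and a match is a run of letters and not a measured site.

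**Figure D5:**
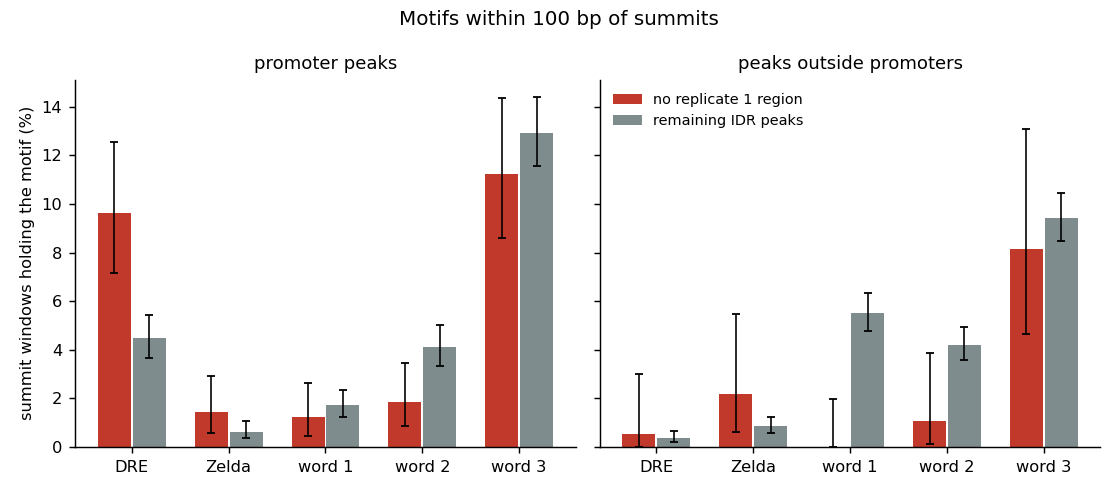
Share of 201-base summit windows that hold each motif (y axis, percent) for members (red) and remaining peaks (grey), at promoters (left) and outside them (right), with exact binomial 95% intervals as error bars. At promoters the DRE is at 9.61% and 4.48%, and outside promoters word 1 is at 0 and 5.52%.

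The difference in base composition depended on the window. Within 50 bp of the summit, A and T made up 63.0% of bases for members and 66.1% for remaining peaks. Within 100 bp the values were 63.0% ± 7.98 (SD, n = 673) for members and 64.5% ± 7.17 (SD, n = 5634) for remaining peaks. Within 200 bp the order turned, with 61.96% against 61.53%, and over whole intervals the values were 61.94% and 61.91%. Exact copies elsewhere in the genome of the 50 bases at the summit were found for 2 members, at snRNA:U1:95Ca and snRNA:U2:34ABb, and for 3 remaining peaks.

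By chromosome arm, members were spread over all arms that carried peaks. Arm 2R held 150 members, 22.3% (19.2 to 25.6) of them, against 17.3% of remaining peaks. For 2L the values were 109 members, 16.2% (13.5 to 19.2), against 19.1%, which this interval includes. Arm X held 119 (17.7% against 17.9%), 3L 139 (20.7% against 22.0%) and 3R 148 (22.0% against 23.6%), where the members' intervals include the remaining share. Replicate 1 listed 201 regions per Mb on 2R and 190 on X, against 228 to 262 on 2L, 3L and 3R.

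Chromosome 4, small and rich in heterochromatin, held 8 of its 17 peaks as members (47.1%, 23.0 to 72.2), against 10.7% of all peaks. It also had 39.3 replicate 1 regions per Mb, against 163 for replicate 2 and 116 for replicate 3, the lowest density of the 6 arms in each list. Of the 8, 4 were promoter peaks, at RpS3A, pan, Asator and gw, and 2 more lay near Asator, 1 near fuss and 1 near Cals. RpS3A, which encodes a small-subunit ribosomal protein (FBgn0017545), and pan, which encodes the Wnt pathway factor TCF (FBgn0085432), shared the longest stretch without a replicate 1 region that holds a member, 167.6 kb. RpS3A (chr4:67163-67420) had signals of 145 in replicate 2 and 196 in replicate 3 and lay 100196 bp from the nearest replicate 1 region. For pan (chr4:70102-70545) the signals were 104 and 90.9.

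The 20 members of highest pooled signal comprised 13 promoter peaks, 5 intronic peaks and 2 others, and 19 of them lay in stretches of at least 10 kb without replicate 1 regions. None held a DRE, against 7.13% of all members, whose shares at promoters and in such stretches were 72.7% and 95.2%. The counts among the 20 members are near these shares. The first was at the start of DUBAI, which encodes a deubiquitinase (FBgn0033738; 2R, pooled signal 1347), with 311 in replicate 2 and 444 in replicate 3, ranks 455 and 424. The next was at yps, which encodes a Y-box RNA-binding protein (FBgn0022959; chr3L:12125055-12125333), with 438 and 437, ranks 219 and 440. Both replicates placed these members among their strongest 500 regions while replicate 1 listed nothing there. This follows in part from the choice, since pooled signal includes replicates 2 and 3 and the rule requires no replicate 1 region.

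Several of these lay at genes of general cell function. The peak at PIG-Q, a gene of glycosylphosphatidylinositol anchor synthesis (FBgn0086448; chrX:16358988-16359339), had signals of 263 in replicate 2 and 433 in replicate 3 and was 20211 bp from the nearest replicate 1 region. At RpL13, which encodes a large-subunit ribosomal protein (FBgn0011272; chr2L:9967165-9967425), the values were 290 and 318. The same peak lay -56 bp from the start of Dref, the gene of the DRE-binding factor, on the other side. Rpn3, a proteasome subunit gene (FBgn0261396), had 249 and 290, and Cox17, the gene of a copper chaperone of cytochrome oxidase (FBgn0030610), 212 and 253. Pex6, a peroxisome biogenesis gene (FBgn0033564), had 212 and 326, and scny, which encodes a ubiquitin-specific protease (FBgn0260936), 223 and 272.

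Members at genes of regulation were also among the 20. An intronic peak 1191 bp inside Trl, the GAGA factor gene (FBgn0013263; chr3L:14755938-14756325), had 266 in replicate 2 and 471 in replicate 3, with a replicate 1 region 782 bp away. In an intron of Sin3A, which encodes a histone deacetylase corepressor scaffold (FBgn0022764), the values were 343 and 351. Hr96, a nuclear receptor gene (FBgn0015240), had 282 and 334 at its start, and bgcn, a germline differentiation gene (FBgn0004581), 256 and 298. The other promoter peaks of the 20 were at mus312, a gene of DNA repair, svr, a carboxypeptidase gene, and CG5096. The others lay near PGRP-SA, a gene of bacterial recognition, pico, CG1737, the small nucleolar RNA gene snoRNA:Me18S-G1358a and Cals, which encodes calsyntenin, where the summit was in a 3′ UTR. Their replicate 2 signals ranged from 190 (snoRNA:Me18S-G1358a) to 301 (Cals) and their replicate 3 signals from 294 (svr) to 517 (Cals).

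Counted by gene, 727 of the 3332 genes with an IDR peak at a promoter (21.8%) had a member there, as had 673 of 3004 protein-coding ones (22.4%). Among genes for small nuclear RNAs, the RNA parts of the splicing machinery, 5 of 8 with a promoter peak had a member, and 2 of the 5 share 1 peak. Counted by peak, 4 of the 7 promoter peaks nearest to such a gene were members (57.1%, 18.4 to 90.1), against 18.1% of all promoter peaks. The peaks were those at snRNA:U1:95Ca (signals 215 and 181 in replicates 2 and 3), snRNA:U5:63BC (171 and 198), snRNA:U2:34ABb (145 and 168) and snRNA:U6:96Ac (121 and 178), the last shared with snRNA:U6:96Ab. The 50 summit bases of the U1 and U2 peaks have exact copies elsewhere, so where their reads belong is uncertain. Small nucleolar RNA genes, which guide RNA modification and often lie in introns of host genes, had members at 10 of 23, but such genes share peaks, as snoRNA:Me18S-G1620 and snoRNA:Me18S-A1576 do. Counted by peak, 2 of the 7 promoter peaks nearest to such a gene were members (28.6%, 3.67 to 71.0), an interval that includes the 18.1%. Among the 10 genes, the member of highest pooled signal was at snoRNA:Psi18S-920 (108 and 113), whose peak is nearest to RpL10Ab. For tRNA genes it was 1 of 17 (5.88%, 0.149 to 28.7), tRNA:His-GTG-1-3, where the nearest start is that of CG8490. This interval includes the 21.8% of all genes.

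Ribosomal protein genes were counted by compartment. Of 69 cytoplasmic ribosomal protein genes with a promoter peak, 11 (15.9%, 8.24 to 26.7) had a member, below the 22.4% of coding genes, which the interval includes. They were led by RpL13, RpL36 (199 in replicate 2 and 209 in replicate 3), RpS3A and RpL26 (111 and 168). Of 29 mitochondrial ribosomal protein genes, 11 had one (37.9%, 20.7 to 57.7), led by mRpL34 (143 and 166), mRpS7 (114 and 152), mRpL53 (123 and 140) and mRpL4 (108 and 118). The interval includes 22.4% here too, so neither list was separable from coding genes at this number of genes.

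In the smaller lists the intervals were wide. Those of the heat shock, clock, insulator and interband, and Polycomb lists all included the 22.4% of coding genes, so none was separable from coding genes. Members lay at 2 of 8 heat shock genes with a promoter peak, Hsp22 (122 in replicate 2 and 148 in replicate 3) and Hsc70-3 (139 and 97.1), and at 0 of 7 clock genes, an interval of up to 41.0%. None of 111 replication-dependent histone genes had an IDR peak at its promoter. How reads matching several genes of such a list were placed is unknown, so this does not show absence of occupancy. Of 9 genes for insulator and interband proteins, 3 had a member: Dref, through the peak at RpL13, pita (96.1 and 141) and su(Hw) (36.6 and 99.4), the last ranked 14692 in replicate 2. Polycomb group genes, which maintain repression, had members at 4 of 7 (57.1%, 18.4 to 90.1). They were Psc (195 and 107), ph-d (57.1 and 113), Su(z)12 (121 and 190) and Jarid2 (66.8 and 61.8), and the peaks at Su(z)12 and Jarid2 lay nearer to the starts of Pfdn6 and Uch-L5.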

How the data were processed

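Regions came from the narrowPeak lists that the authors deposited with dm6 coordinates: 1 IDR list, 1 pooled list and 1 list per replicate, each of the last 2 kinds limited to 30000 regions. Column 7 holds the authors' signal value and column 9 the deposited −log10 q, where 2 is a q of 0.01. Per the deposited text files, each list was called against a common control alignment; aligner, peak caller and IDR threshold were not given in any source used here. Read depth per sample is unknown, so no interval reflects it.

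Members were IDR peaks with 0 overlapping bases in the replicate 1 list. Each peak took the value of the overlapping region of highest signal in replicates 2 and 3, ranked within that list. Starts, genes and UTRs came from Ensembl release 115 on X, 2L, 2R, 3L, 3R and 4, and sequence from Release 6; summits at most 500 bp from a start made a promoter peak. Python 3.11.15, pandas 2.3.3, numpy 2.4.6 and scipy 1.17.1 were used, and the counting steps were tested on simulated data. Genes named are those nearest the 20 members of highest pooled signal, members at snRNA genes, up to 4 genes per list by highest member peak, the 5 peaks nearest the boundary on either side, the longest stretch, chromosome 4, and the genes of the printed sequences; those of chromosome 4 and of the sequences were chosen after their values were seen. Members, gene lists and motifs were chosen with earlier results of these data known, and the classes by weaker replicate 1 regions and by replicate 1 regions within 10 kb after seeing the data. The symbol Z4 matched no annotated gene.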

Additional observations from a re-analysis of the deposited data

How the results depend on the processing

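Of 79 alternative values, 44 kept the order of members and remaining peaks and stayed in the interval of the reported share, mean or median, or within 1.5 times the reported count. The count of 673 was 829 when 50% of the peak had to be overlapped, 67 with the rule on replicate 2, 21 on replicate 3 and 2016 with replicate 1 regions of −log10 q 2 or more; dm3 lists gave 704 of 5864. Settings without replicate 2 or replicate 3 kept 6286 and 6240 of the IDR peaks, and the IDR list was not made anew. They gave 670 and 673 members, promoter shares of 72.69% and 72.66% and A and T shares of 62.99% and 63.03%. The rule uses neither list, so these near-equal values were fixed in advance and do not measure stability. Without replicate 1 the rule has no meaning. The promoter share was 67.9% when 50% of the peak had to be overlapped, 65.1% and 81.1% with windows of 250 and 1000 bp, 68.3% and 76.2% in signal classes 2 and 3, 43.3% with strong replicate 1 regions only, 61.9% with replicate 3 and, reversed, 32.8% with replicate 2. Alternatives chosen after seeing the data gave 86.2%, 68.1% and 47.2% where 0, 3 to 5, and 6 or more other replicate 1 regions lay within 10 kb, and 59.4% of 32 members in stretches under 10 kb; also chosen then, peaks at a q of 0.01 in replicates 2 and 3 gave 72.4% and 62.9% A and T, and promoter peaks alone 62.9% A and T.

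The A and T share was 61.4%, 64.2% and 65.3% in signal classes 1, 3 and 4, 55.7% in stretches under 10 kb and 63.98% with replicate 2. Its order turned within 200 bp (61.96%), over whole intervals (61.94%), with replicate 3 (67.8%) and against peaks with a weaker replicate 1 region (63.0% against 62.8%). Coverage in both other replicates was 97.3% for overlap of 50% of the peak, 98.1% by summits, 91.0% with replicate 2, and reversed at 57.1% with replicate 3 and 98.5% with strong replicate 1 regions. At −log10 q of 3 and 1.3, 81.4% and, reversed, 97.9% of members passed in both. The X share reversed at 17.97% for overlap of 50%. Ranked by −log10 q, which is tied at its highest value, medians were 2370.5, 3194 and 2887.5 in replicate 2, replicate 3 and the IDR list, equal for both sets. The cause of these moves was not tested. Column 8 is -1 throughout, so ranking by it was not run. No paired analysis was possible because there is only 1 group.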
